A study of Homo sapiens with 12 samples.

Results

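The circular RNAs (circRNAs) of 2 human genes, HIPK2 and HIPK3, were taken from a table of back-splice junction reads as every entry whose host gene is given as HIPK2 or HIPK3. The rule found 8 circRNAs of 17938 in the table, 3 from HIPK2 and 5 from HIPK3, and used no read count. They held 586 of the 92237 junction reads of the 12 libraries (0.635%). A back-splice junction joins the end of an exon to the start of the same or an earlier exon. Reads across it are taken here to come from a circle and not from the linear mRNA.

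The study sequenced rRNA-depleted total RNA of HCT116 and Lovo cells, both human colorectal cancer lines, to find circRNAs that accompany resistance to 5-fluorouracil (5-Fu), a pyrimidine analogue used in chemotherapy. Each line was sampled as its parental, 5-Fu sensitive form and as a derivative selected by stepwise exposure to 5-Fu from 0.1 to 2 μg/ml, the last dose being survived for at least 3 days. The 4 groups held 3 libraries each. Since the labels are silent on whether these were separate cultures or selections, p-values reflect nothing more than the spread among the libraries at hand, which may be technical. Changes that a derivative gained for reasons other than resistance cannot be told apart from resistance. Libraries held 5654 to 10535 junction reads, 6238 to 10535 in HCT116 and 5654 to 7568 in Lovo. Of 15 markers of intestinal epithelium, 7 had circRNA reads, EPCAM and PTPRK among them, while KRT8, KRT18, KRT20, CDX1 and CDX2 were not listed. None of 25 fibroblast, immune and endothelial markers had a read.

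HIPK2 and HIPK3 encode related nuclear serine/threonine kinases, the homeodomain-interacting protein kinases. HIPK2 is activated after DNA damage and acts in apoptosis, and HIPK3 has been studied as a kinase linked to survival signalling and steroidogenesis. The circle of HIPK3 known as circHIPK3 is among the most widely studied human circRNAs, formed from a single long exon that holds the start codon, and described in many tissues as a binder of microRNAs.

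One junction dominated each gene. For HIPK3 it was hsa_circ_0000284, an exonic circle on transcript NM_005734 at chr11:33307959-33309057 on the plus strand (hg19), with 526 reads. For HIPK2 it was hsa_circ_0001756, an exonic circle on NM_022740 at chr7:139415731-139416814 on the minus strand (hg19), with 44 reads. HIPK3 hsa_circ_0000284 thus took 0.570% of all junction reads and ranked 2 by pooled reads among the 14911 circRNAs with at least 1 read, and HIPK2 hsa_circ_0001756 ranked 218. The other 6 circRNAs had at most 4 reads each and 16 in all.

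Both circles had the same build. The predicted circle of HIPK3 was 1099 bases and that of HIPK2 1084 bases, a difference of 15 bases, and in each case the predicted length equalled the distance between the junction ends. Neither predicted circle therefore spans an intron. Of 14140 exonic circRNAs in the table, 617 (4.36%) shared this property, and these held 11.7% of the reads of exonic circRNAs. They were 15 of the 50 most abundant exonic circRNAs. Among the 93 intron-free circles with at least 20 reads, HIPK3 ranked 2 by reads and 40 by length, and HIPK2 ranked 44 by reads and 41 by length. Their lengths were above the median of 938 bases and inside the quartiles of 530 and 1595 bases. Against all exonic circRNAs, whose median length was 571 bases, the HIPK3 circle was longer than 81.0% and the HIPK2 circle longer than 80.5%. A junction is counted once per read whatever the length of the circle, and these read counts were not corrected for length. Whether the length of a circle affects how readily its junction is read was not tested.

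**Figure D1:**
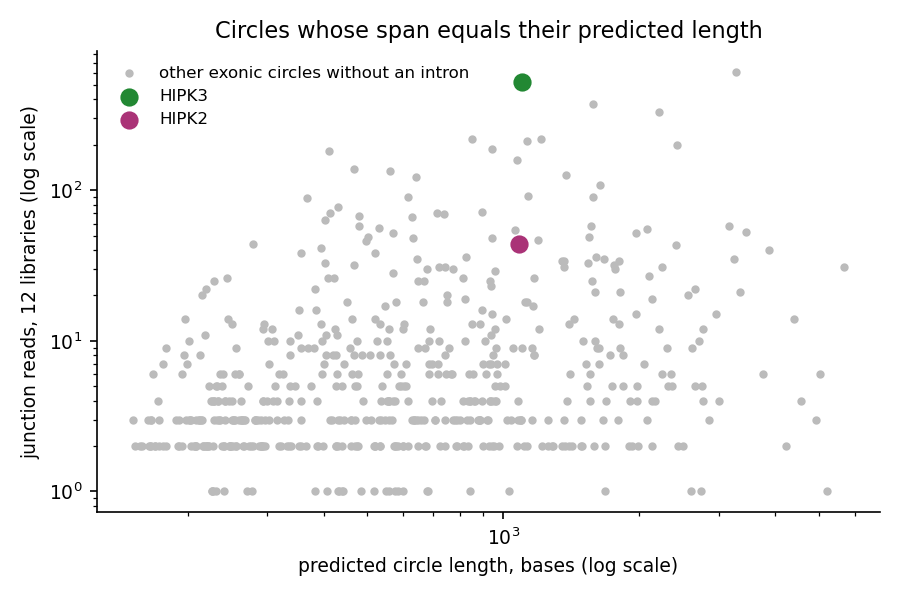
Reads summed over the 12 libraries (y axis, log scale) against predicted circle length in bases (x axis, log scale) for the exonic circles whose span equals their predicted length; each point is 1 circRNA and those without reads are not drawn. HIPK3 (526 reads, 1099 bases) sits near the top and HIPK2 (44 reads, 1084 bases) lies below it at almost the same length.

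The concentration of reads on 1 junction was high for both genes. HIPK3 hsa_circ_0000284 held 98.3% of the 535 HIPK3 reads (95% exact binomial interval 96.8% to 99.2%). This was the fifth highest share among 143 host genes with at least 100 reads, whose median share was 59.8% over a median of 10 listed junctions. HIPK2 hsa_circ_0001756 held 86.3% of the 51 HIPK2 reads (73.7% to 94.3%), rank 95 among 741 host genes with at least 30 reads, where the median was 48.6% over a median of 7 listed junctions. HIPK3 had 5 junctions listed and HIPK2 had 3, fewer than those medians. The intervals cover counting error only, because the reads carry no molecular identifiers and need not be independent molecules.

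The minor HIPK3 junctions fell into 2 places. An exonic circle, hsa_circ_0021604 at chr11:33360303-33363232, had 4 reads, all in replicate 2 of resistant HCT116. Its predicted length of 556 bases was shorter than its span of 2930 bases, so it joins more than 1 exon. A partner with the same right end, hsa_circ_0021603 at chr11:33358621-33363232, with a predicted length of 676 bases, had no read in any library. The sense overlapping hsa_circ_0002127 at chr11:33307959-33308498 (540 bases) starts where the dominant circle starts and ends within it. It had 3 reads, 1 in replicate 2 of sensitive Lovo and 2 in replicate 2 of resistant Lovo.

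The remaining HIPK3 entry was an antisense junction with exactly the ends of hsa_circ_0000284 on the opposite strand. It had 2 reads, both in replicate 3 of sensitive HCT116, which is 0.380 per 100 sense reads. The table lists 39 antisense circRNAs, and 5 of them mirror a sense junction base for base. The sense partners of these 5 had 22, 526, 18, 8 and 5 reads, so HIPK3 was the most abundant mirrored circle. Whether such reads come from antisense RNA or from reads assigned to the wrong strand was not tested.

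Both minor HIPK2 junctions were sense overlapping and reused an end of the dominant HIPK2 circle. The junction chr7:139415731-139455058 spanned 39328 bases and had 4 reads, 1 in replicate 1 of resistant HCT116 and 3 in replicate 2 of sensitive Lovo. The junction chr7:139375741-139416814 spanned 41074 bases and had 3 reads, all in replicate 2 of resistant Lovo. The exon of the dominant circle was thus an end of all 3 HIPK2 junctions.

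**Figure D2:**
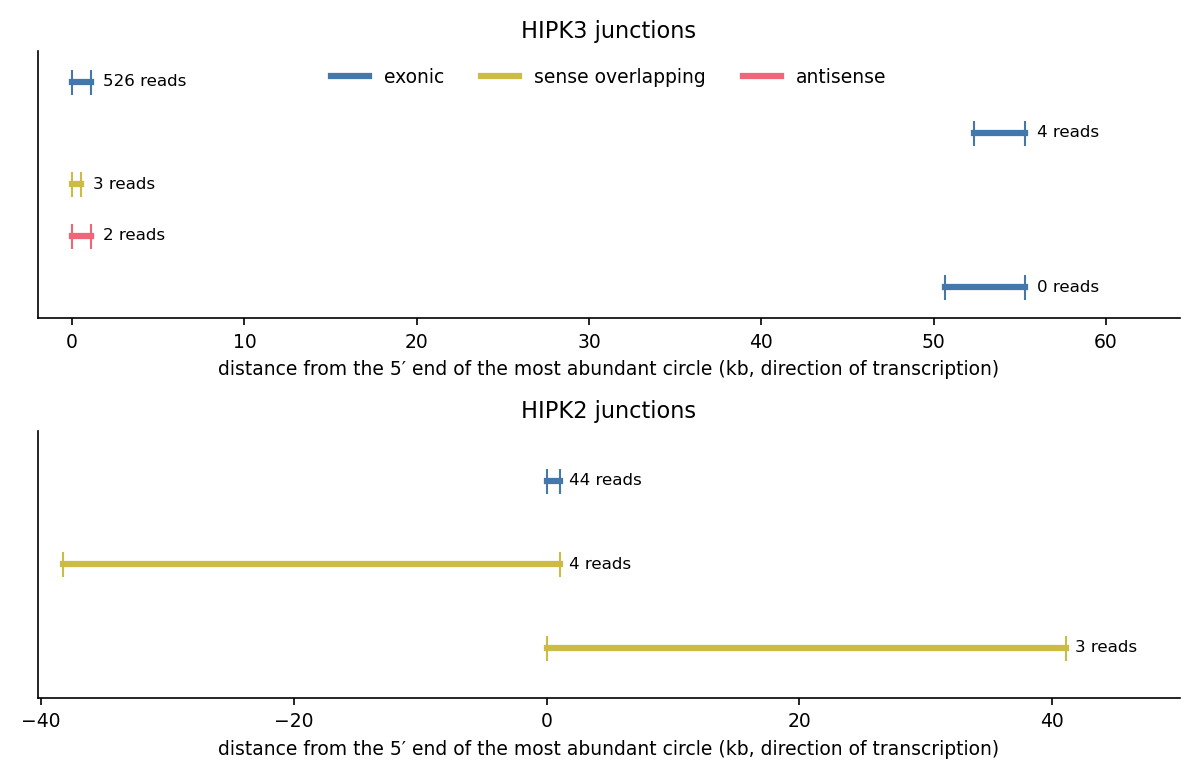
Map of the 5 HIPK3 junctions (top) and 3 HIPK2 junctions (bottom) as horizontal bars between their 2 ends, coloured by class, with reads over the 12 libraries beside each; the x axis is the distance in kb from the 5′ end of the most abundant circle, in the direction of transcription of the gene. The short bars at 0 are the dominant circles with 526 and 44 reads, and every other junction has 4 reads or fewer.

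The HIPK3 circle was read in every library. Sensitive HCT116 gave 21, 53 and 39 reads, resistant HCT116 34, 39 and 43, sensitive Lovo 35, 41 and 45, and resistant Lovo 62, 48 and 66. As CPM, the junction reads scaled by TMM-normalized library size, sensitive HCT116 stood at 3456, 6485 and 4408 and resistant HCT116 at 3919, 4839 and 4908. Sensitive Lovo stood at 5057, 6237 and 7146 CPM and resistant Lovo at 7864, 6131 and 9126 CPM. The resistant HCT116 values lay inside the range of the sensitive ones, the Lovo groups overlapped, and all 3 resistant Lovo libraries lay above all 3 resistant HCT116 libraries. Mean levels were 4555 ± 552 CPM in resistant HCT116, 4783 ± 1549 in sensitive HCT116, 6147 ± 1047 in sensitive Lovo and 7707 ± 1504 in resistant Lovo (SD, n = 3 each). In this order no neighbouring pair differed beyond the spread of its libraries.

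The place of the HIPK3 circle among all circRNAs of a library tended to be higher in Lovo than in HCT116, and did not separate the HCT116 forms. It was the most abundant circRNA in all 3 resistant Lovo libraries, ranked 3, 1 and 1 in the sensitive Lovo libraries, and in HCT116 ranked 9, 2 and 7 before selection and 9, 5 and 5 after it. As a share of pooled group reads it held 0.441% in sensitive HCT116 (95% exact interval 0.364% to 0.530%) and 0.440% in resistant HCT116 (0.364% to 0.528%). The corresponding shares were 0.662% in sensitive Lovo (0.549% to 0.790%) and 0.800% in resistant Lovo (0.687% to 0.927%). These intervals pool the reads of a group and cover counting error only. They leave out the spread between libraries and are no test of a difference between groups. In bulk libraries, fewer cells with a circle and fewer circles per cell cannot be told apart.

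The HIPK2 circle was sparse. Sensitive HCT116 libraries gave 1, 8 and 5 reads and resistant HCT116 libraries 10, 4 and 7. Sensitive Lovo libraries gave 0, 1 and 5 reads and resistant Lovo libraries 0, 3 and 0. All 6 HCT116 libraries and 3 of the 6 Lovo libraries held a read. In the 3 Lovo libraries without one, a count of 0 allows a share of up to 0.0445% (sensitive, replicate 1), 0.0396% (resistant, replicate 1) and 0.0403% (resistant, replicate 3) of the library, taking 3 counts as the limit. Mean levels were 128 ± 221 CPM in resistant Lovo, 315 ± 421 in sensitive Lovo, 570 ± 407 in sensitive HCT116 and 816 ± 329 in resistant HCT116 (SD, n = 3 each), again with no neighbouring pair apart beyond its spread. The order of the groups was the reverse of that of HIPK3 between the lines, HCT116 being high for HIPK2 and Lovo for HIPK3.

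**Figure D3:**
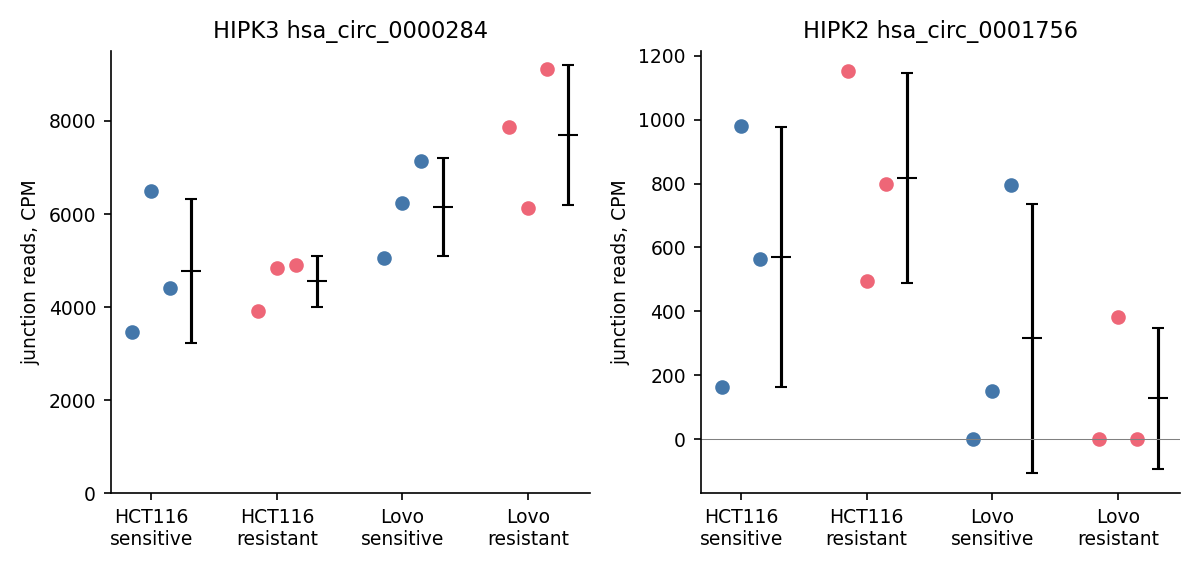
Level of the dominant HIPK3 circle (left) and HIPK2 circle (right) in CPM of junction reads (y axes, different scales) in the 4 groups; points are libraries, blue for sensitive and red for resistant, with mean ± SD (n = 3) beside them. HIPK3 runs from 3456 CPM in sensitive HCT116 to 9126 in resistant Lovo, and HIPK2 is at 0 in 3 Lovo libraries.

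The first comparison asks whether the circles differed between resistant and sensitive cells. Neither did so past the test in either line, in a fit of all 12 libraries in which 300 circRNAs had enough reads to be tested. In HCT116 the HIPK3 circle differed by a log2 fold change of −0.08 ± 0.28 (SE, 95% interval −0.62 to 0.46, edgeR adjusted p = 0.967) and the HIPK2 circle by 0.47 ± 0.89 (−1.29 to 2.22, adjusted p = 0.945). Of all circRNAs tested in HCT116, 3 were called (1%). In Lovo the HIPK3 circle differed by 0.33 ± 0.27 (−0.19 to 0.85, edgeR adjusted p = 0.904) and the HIPK2 circle by −1.15 ± 1.23 (−3.56 to 1.27, adjusted p = 0.984). In Lovo edgeR called none of the 300 (0%), although 17 had an unadjusted p under 0.05, and DESeq2 also called 0. The HIPK3 intervals stay within 1 log2 unit of 0 in both lines, and the HIPK2 intervals do not.

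Leaving out 1 library turned the sign of some of these differences. Without replicate 2 of sensitive HCT116, the library with the most HIPK3 reads of its group, the HIPK3 value in HCT116 was 0.20, and without replicate 1 of resistant HCT116 it was 0.02. Without replicate 3 of sensitive Lovo, which held 5 of the 6 HIPK2 reads of that group, the HIPK2 value in Lovo was 0.66, and without replicate 2 of resistant Lovo, which held all 3 reads of its group, it was −4.22. None of these passed the test.

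The response of the circles to resistance was then compared between the lines. The resistance effect in HCT116 minus that in Lovo was −0.41 ± 0.38 for the HIPK3 circle (95% interval −1.16 to 0.34, edgeR adjusted p = 0.817) and 1.62 ± 1.52 for the HIPK2 circle (−1.36 to 4.60, adjusted p = 0.817). Among the 300 circRNAs 1 was called (0.333%). A difference in response between the lines was not detectable for either circle at this depth, and without replicate 3 of sensitive Lovo the HIPK2 value was −0.22.

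Between the lines, the HIPK3 circle was lower in HCT116 than in Lovo. In resistant cells the log2 fold change of HCT116 over Lovo was −0.76 ± 0.27 (95% interval −1.28 to −0.23, edgeR adjusted p = 0.0326), a level 1.69-fold lower in HCT116, with 3 of 3 HCT116 libraries below every Lovo library. In this contrast 16.7% of the 300 circRNAs tested were called and 8.33% of the 300 were called lower in HCT116, so the HIPK3 circle was 1 of 25 called in this direction. In sensitive cells the difference had the same sign, −0.34 ± 0.27 (adjusted p = 0.416), and the ranges overlapped. Leaving out 1 library moved it to between −0.66 and −0.07, and 14.3% of circRNAs were called there. Averaged over both states, a contrast added after seeing the data, the HIPK3 circle differed by −0.55 ± 0.19 (edgeR adjusted p = 0.0198), 1.46-fold lower in HCT116, where 25.3% of circRNAs were called and 13% were lower in HCT116.

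The line contrasts use the same libraries as the resistance contrasts, so their values are not independent. The call in resistant cells was close to the threshold. It was lost with RLE size factors (−0.67, adjusted p = 0.0648), without the filter on low counts (−0.66, adjusted p = 0.678), and without any of 5 of the 6 resistant libraries. In edgeR, the adjusted p was 0.227, 0.104 and 0.110 without HCT116 replicates 1, 2 and 3 (log2 fold changes −0.60, −0.77 and −0.80), and 0.0856 and 0.179 without Lovo replicates 1 and 3 (−0.77 and −0.59). Without Lovo replicate 2 it was kept (−0.84, adjusted p = 0.0420). The averaged call was lost without the filter (−0.46, adjusted p = 1.00) and without replicate 1 or 3 of sensitive HCT116 (−0.40 and −0.48, adjusted p = 0.0961 and 0.0740), replicate 1 or 2 of resistant HCT116 (−0.44 and −0.54, adjusted p = 0.103 and 0.0542), replicate 3 of sensitive Lovo (−0.53, adjusted p = 0.0542) or replicate 3 of resistant Lovo (−0.48, adjusted p = 0.0530). The sign was negative in every one of these fits.

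The HIPK2 circle stood higher in HCT116 in every line contrast, without passing the test. It cleared the filter on low counts mainly through its HCT116 libraries, so it was tested because of the line where it is high. With only the groups compared, it had too few reads to be tested for sensitive lines, resistant lines or Lovo resistance. The log2 fold change of HCT116 over Lovo was 0.90 ± 1.02 in sensitive cells (edgeR adjusted p = 0.574, 0.25 to 2.73 when 1 library was left out), 2.51 ± 1.09 in resistant cells (95% interval 0.38 to 4.64, adjusted p = 0.0994) and 1.70 ± 0.75 averaged over both states (adjusted p = 0.0753). Without replicate 2 of resistant Lovo, the 1 library of its group with HIPK2 reads, the resistant contrast passed (5.70, edgeR adjusted p = 0.0217). That group is then at 0 reads and the fitted fold is no estimate of size. The averaged contrast passed without the same library (3.35, adjusted p = 0.0108), without replicate 1 of sensitive HCT116 (1.95, adjusted p = 0.0398) and without replicate 3 of sensitive Lovo (2.58, adjusted p = 0.0270).

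**Figure D4:**
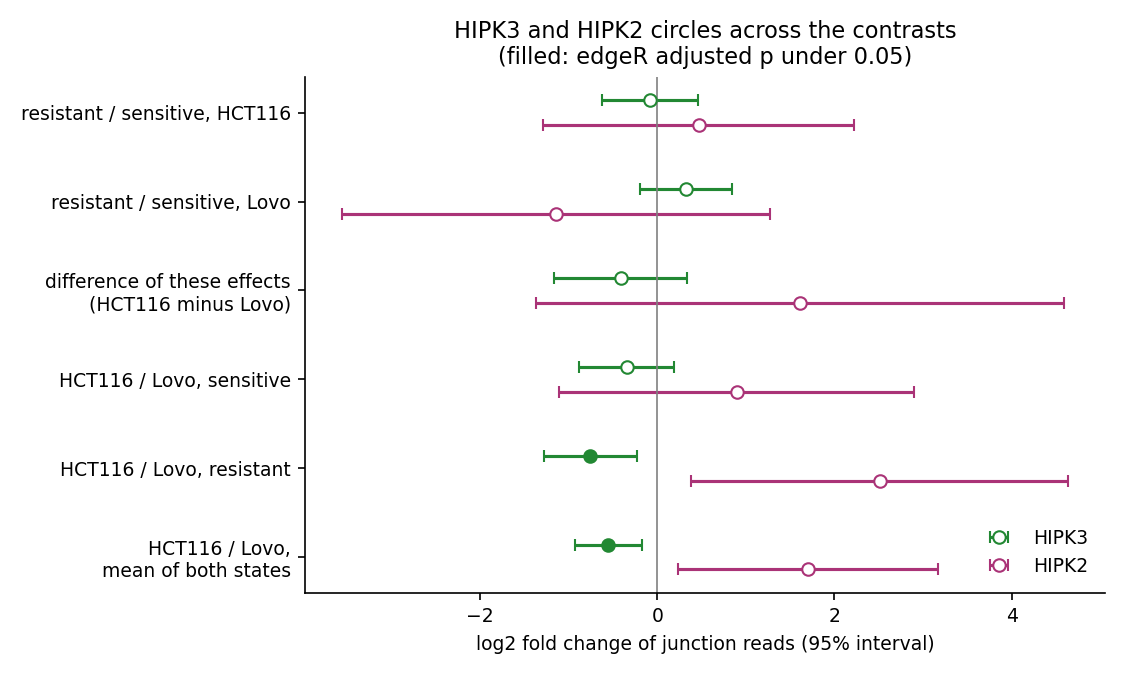
Log2 fold changes of the dominant HIPK3 (green) and HIPK2 (purple) circles with 95% intervals (x axis) in the 5 contrasts of the design and the line contrast averaged over both states (y axis); filled points passed an edgeR adjusted p under 0.05. The 2 filled points are HIPK3 in resistant cells (−0.76) and averaged over both states (−0.55), and the HIPK2 points of the line contrasts lie on the other side of 0.

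With all junctions of a gene summed, 580 host genes could be tested. HIPK3 had 115, 120, 122 and 178 reads in sensitive HCT116, resistant HCT116, sensitive Lovo and resistant Lovo, and HIPK2 had 14, 22, 9 and 6. Between resistant and sensitive cells the HIPK3 sum differed by 0.03 ± 0.26 in HCT116 and 0.32 ± 0.25 in Lovo on the log2 scale (edgeR adjusted p = 0.998 and 0.951). The HIPK2 sum differed by 0.61 ± 0.85 and −0.80 ± 1.02, and leaving out 1 library moved these to between 0.22 and 1.22 and between −4.94 and −0.13. In these 2 contrasts 0.517% and 0% of host gene sums were called, the latter with 30 at an unadjusted p under 0.05 and 0 calls by DESeq2.

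Between the lines the HIPK3 sum was lower in resistant HCT116 than in resistant Lovo by a log2 value of −0.70 ± 0.25 (edgeR adjusted p = 0.0477), where 11.9% of sums were called and 5.86% were lower. In sensitive cells it differed by −0.41 ± 0.26 (adjusted p = 0.336, with 10% called). Averaged over both states, again an added contrast, it differed by −0.55 ± 0.18 (adjusted p = 0.0141, with 20% called and 9.66% lower). The resistant call on the sum was lost without the filter (adjusted p = 0.134), with replicate number as a block (0.0564) and without replicate 1 or 3 of resistant HCT116 (0.188 and 0.0685) or replicate 1 or 3 of resistant Lovo (0.0723 and 0.127). The averaged call on the sum was kept in each of the 12 fits that left out 1 library and applied the filter anew. It was lost in 1 of 12 when the features of the full fit were kept, without replicate 3 of sensitive Lovo (−0.51, adjusted p = 0.0537). The HIPK2 sum differed by 1.66 ± 0.94 in resistant cells (edgeR adjusted p = 0.291) and by 0.96 ± 0.66 averaged (adjusted p = 0.307). Both passed in edgeR without replicate 2 of resistant Lovo (5.72 and 2.93, adjusted p = 0.0356 and 0.0433). That library held all 6 HIPK2 reads of its group. The group is then at 0 reads, so the fitted folds are no estimates of size and these passes add no support.

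The balance of the 2 genes was described within each library as the log2 ratio of HIPK3 to HIPK2 reads, with 0.5 added to each count. It uses the same reads as the line contrasts, where HIPK3 was low and HIPK2 high in HCT116, and is not independent of them. Pooled over HCT116 libraries, HIPK3 had 8.21 reads per HIPK2 read in the sensitive and 5.45 in the resistant form, and over Lovo libraries 13.6 and 29.7. The sensitive HCT116 libraries had log2 ratios of 3.84, 2.65 and 2.92, and the resistant ones of 1.58, 3.27 and 2.54. For Lovo the ratios were 6.15, 3.24 and 3.05 before selection and 6.97, 2.96 and 7.06 after it. The 3 high values are the Lovo libraries without a HIPK2 read, where the ratio depends on the added 0.5, and the other Lovo libraries lie within the HCT116 range.

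The mean log2 ratio was 2.80 ± 0.76 in HCT116 and 4.90 ± 2.02 in Lovo (SD, n = 6 each), a difference of −2.10 that did not pass the two-sided exact permutation test (p = 0.0541). The difference was −1.01 in sensitive cells (exact permutation p = 0.5) and −3.19 in resistant cells (p = 0.2), where 3 against 3 libraries cannot go below 0.1. It passed with the dominant junctions alone (−2.51, exact permutation p = 0.0108), with exonic circles alone (−2.49, p = 0.0108) and with 1 added in place of 0.5 (−1.69, p = 0.0455). It also passed without replicate 1 of sensitive HCT116 (−2.31, exact permutation p = 0.0216), replicate 2 or 3 of sensitive Lovo (−2.43 and −2.47, p = 0.0433 and 0.0390) or replicate 2 of resistant Lovo (−2.49, p = 0.0390). Resistant minus sensitive, the ratio differed by −0.67 in HCT116 and 1.51 in Lovo (exact permutation p = 0.4 for both), with ranges of −1.08 to −0.23 and 0.82 to 2.86 when 1 library was left out. These were 5 comparisons of 1 measure, and the p-values are not adjusted.

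**Figure D5:**
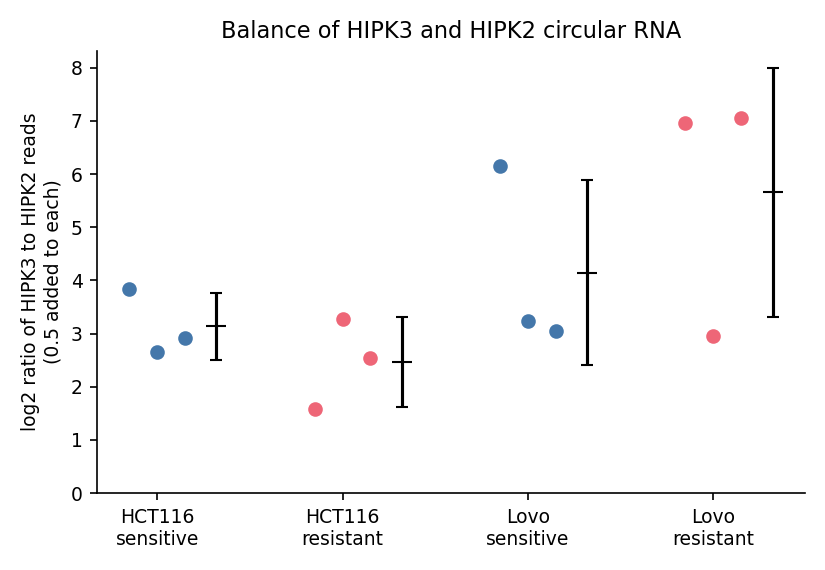
Log2 ratio of HIPK3 to HIPK2 junction reads per library (y axis, 0.5 added to each count) in the 4 groups; points are libraries, with mean ± SD (n = 3) beside them. The 3 points above 6 are the Lovo libraries without a HIPK2 read.

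The share of a gene's reads at its dominant junction was compared by library. The dominant circle held 100% of HIPK3 reads in 8 libraries and 90.7% to 97.6% in the other 4. The share was 97.6 ± 3.92% in HCT116 and 98.9 ± 1.73% in Lovo (SD, n = 6 each, two-sided exact permutation p = 0.576). For HIPK2 it was 98.5 ± 3.71% over 6 HCT116 libraries. In the 3 Lovo libraries with any HIPK2 read the dominant circle had 1 of 4, 5 of 5 and 3 of 6 reads. The mean share was 40.2 percentage points higher in HCT116 (6 against 3 libraries, two-sided exact permutation p = 0.167), and 23.5 to 61.0 points higher when 1 library was left out.

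Depth and some marker circRNAs also differed between the lines, not all markers in the same direction. Lovo libraries held 5654 to 7568 junction reads against 6238 to 10535 in HCT116, overlapping ranges. The circRNAs of the 15 epithelial markers held 0% to 0.0570% of library reads in sensitive HCT116 and 0.0567% to 0.104% in its resistant form. In Lovo they held 0.0884% to 0.326% when sensitive and 0.0538% to 0.172% when resistant. CDH1, CDH17, VIL1 and LGR5 were at 0 reads in HCT116. The part of depth and of epithelial markers in the line differences of HIPK3 and HIPK2 was not tested.

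Replicates of the HIPK3 circle varied about as much as those of other circRNAs. Its variance within groups was 1.9 times that of counting alone, against a median of 1.84 over the 300 tested, and by group it ran from 0.577 in resistant HCT116 to 3.61 in sensitive HCT116. For the HIPK2 circle it was 2.43, a larger spread that its intervals hardly reflect, because the tests pooled the spread over all features.

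The circRNAs whose pattern over the 12 libraries was most like that of HIPK3 came from AFTPH, RAB3IP, CRKL, LMBR1 and KANSL1. Likeness was the root mean square difference of log2 CPM after centring each circRNA on its own mean, and it was 0.36 to 0.38 for these 5 against a median of 0.80 over the 299 compared. For HIPK2 the closest were circRNAs of ZNF148 (0.36), FAM120A (0.47), SETD3 (0.57), NRIP1 (0.58) and PTPRA (0.60), against a median of 1.10. All values share libraries, depth and scaling.

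The other members of the kinase family gave few circles. HIPK1 had 7 reads over 2 listed circRNAs, 4 in sensitive Lovo and 3 in resistant Lovo and none in HCT116, and HIPK4 was not listed. HIPK3 thus supplied 535 of the 593 reads of the family.

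Genes known as partners, targets or regulators of HIPK2 were followed at the host gene sum. Of 39 such genes 25 had circRNA reads, 757 in all, and 9 could be tested. SIAH1, SIAH2, DAXX and PML had none listed. In 5 contrasts (resistance in HCT116, in Lovo, their difference, and the lines in sensitive and in resistant cells) none of the 9 was called by edgeR, where 0.517%, 0%, 0%, 10% and 11.9% of all 580 sums were called. CREBBP, which encodes a histone acetyltransferase, had 42 reads in sensitive and 13 in resistant HCT116 against 10 and 15 in Lovo, a log2 fold change with resistance in HCT116 of −1.71 ± 0.69 (edgeR adjusted p = 0.461). UBE3A, which encodes the ubiquitin ligase lost in Angelman syndrome, had 24, 34, 42 and 58 reads in sensitive HCT116, resistant HCT116, sensitive Lovo and resistant Lovo. Averaged over both states it was lower in HCT116 by a log2 value of −1.01 ± 0.33 (edgeR adjusted p = 0.0153), the 1 call among the 9 in that contrast, where 20% of sums were called. CTBP1, a transcriptional corepressor, had 96 reads, ATM, the kinase that signals strand breaks, had 54, and the corepressor CTBP2 and the WNT scaffold AXIN1 had 47 and 39.

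The median log2 fold change of the 9 genes was 0.37 for resistance in HCT116 and 0.19 in Lovo, against 0.04 and 0.00 over all 580 sums. For HCT116 over Lovo it was 0.11 in sensitive cells, −0.36 in resistant cells and −0.55 averaged, against 0.04, 0.06 and 0.09.

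The table also carries disease names for 417 circRNAs (2.32%), as the authors took them from outside sources, with a median of 19 and a highest number of 64 names. The HIPK3 circle had 48 names and the HIPK2 circle 17, and colorectal cancer was among both. These annotations were not measured in these cells.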

How the data were processed

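Values in the deposited table are raw, unnormalized counts of reads across each back-splice junction, 1 column a library, per the file headers. It also gives the predicted sequence length and position of each circRNA. Libraries were directional and rRNA-depleted, per the labels' protocols. The submitters' processing notes name edgeR 3.16.5, STAR 2.5.1b, cutadapt 1.9.3 and the build hg19 without a role. The circRNA caller, annotation and listing minimum remain not given in the sources used here. No column fell outside the 12 libraries.

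Testing of counts used R 4.3.3 and edgeR 4.0.16: TMM scaling, filterByExpr (minimum count 5, minimum total count 15), 1 quasi-likelihood fit of 4 group means (8 residual degrees of freedom) and Benjamini-Hochberg adjustment over all 300 circRNAs or 580 host gene sums, with a threshold of 0.05. The SE is the log2 fold change divided by the square root of F. Tests and intervals rest on a spread pooled over all features, not on the 8 degrees of freedom of each. The spread of a single circle thus had almost no weight in its own test. The pipeline was tested on simulated data. Shares and ratios per library were compared by exact permutation tests in scipy 1.17.1 (Python 3.11.15). Alternatives were RLE scaling, DESeq2 1.42.0, no filter, only the groups compared, a replicate block and leaving out each library. Leaving out libraries with the tested features held fixed, and the line contrast averaged over states, were added after seeing the data.

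Members and gene lists were chosen with earlier results of these data known. Members with at least 10 reads are described library by library; list genes are named from 15 reads, at most 6 a list; the 5 circRNAs nearest in pattern are named. Other genes named were chosen after their values were seen. Sequences of the circles were not used here. Depth was 5654 to 10535 reads per library; this and the spread between libraries limit the precision for circles with few reads.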

Additional observations from a re-analysis of the deposited data

How the results depend on the processing

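Of 576 alternative values over 33 results on HIPK2 and HIPK3, 499 kept their direction and their side of the threshold, 35 lost a call, 19 gained one and 23 turned sign. All 23 sign changes came from leaving out 1 library and concerned values that were never called. Losses concerned the HIPK3 line contrasts and gains the HIPK2 line contrasts and the ratio; the cause was not tested.

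Beside the values given in the text, scaling, filter and block changed HIPK3 as follows. In resistant cells the circle went to −0.67 with RLE factors and −0.66 without a filter, and the host gene sum to −0.76 without a filter and −0.72 with the replicate block. Averaged over states the circle went to −0.46 without a filter, with an SE of 0.31 in place of 0.19. The ratio difference between lines was −2.49 for exonic circles, −2.51 for dominant junctions and −1.69 with 1 added.

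Without a filter, calls moved from 3 to 1 circRNA for HCT116 resistance, 1 to 0 for the difference of responses, 43 to 14 for sensitive lines, 50 to 20 for resistant lines and 76 to 44 averaged; host gene sums moved from 58 to 28 and from 69 to 40 for sensitive and resistant lines. With only the groups compared, circRNA calls for Lovo resistance moved from 0 to 1 and host gene calls for HCT116 resistance from 3 to 6.

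No pairing of the libraries by replicate number was detected, though the low counts per circRNA could hide a weak one. Same-numbered sensitive and resistant libraries correlated at −0.02, −0.01 and 0.06 in HCT116 and at −0.04, 0.00 and 0.02 in Lovo. With the block, circRNA calls were 3, 0, 1, 36, 46 and 65 in HCT116 resistance, Lovo resistance, their difference, sensitive lines, resistant lines and lines averaged.

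Leaving out 1 library at a time gave these log2 ranges. The HIPK3 circle ranged from −0.19 to 0.20 (HCT116 resistance), −0.90 to −0.52 (resistant lines) and −0.70 to −0.36 (averaged), and the HIPK3 sum from −0.15 to 0.32, −0.98 to −0.55 and −0.73 to −0.47. The HIPK2 circle ranged from −4.30 to 0.69 (Lovo resistance), −0.22 to 4.77 (difference of responses), 1.92 to 5.70 (resistant lines) and 1.39 to 3.35 (averaged), and the HIPK2 sum from −0.42 to 0.88 (sensitive lines), 0.95 to 5.72 (resistant lines) and 0.57 to 2.97 (averaged). The ratio between lines ranged from −2.49 to −1.67. The share of HIPK3 reads at the dominant junction ranged from −3.10 to 1.63 percentage points (HCT116, resistant minus sensitive), −1.33 to 0.794 (Lovo) and −1.89 to 0.0879 (HCT116 minus Lovo), and that of HIPK2 from −50 to 25 (Lovo). Calls ranged from 1 to 6 circRNAs for HCT116 resistance, 0 to 3 for the difference of responses, and 2 to 5, 0 to 1, 0 to 2 and 38 to 52 host genes for HCT116 resistance, Lovo resistance, their difference and sensitive lines.

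Depth limits all of this: the HIPK2 circle had 0 to 10 reads a library, and its intervals are wide.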

Other observations

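Other hosts of widely studied circRNAs give a setting for the HIPK3 circle. Of 20 such genes (HIPK3 not among them) 19 had reads, 3383 in all, and 10 could be tested at the host gene sum. None was called by edgeR for resistance in either line or for the difference of responses, where 0.517%, 0% and 0% of all sums were called. In sensitive cells ARHGAP12 (1.69 ± 0.30, edgeR adjusted p = 1.4e-06) and CAMSAP1 (1.67 ± 0.33, 2.7e-05) were higher in HCT116 than in Lovo on the log2 scale, and PVT1 was lower (−1.39 ± 0.40, 0.00788), where 10% of all sums were called. In resistant cells ARHGAP12 (1.58 ± 0.27, 4.6e-07) and FAT1 (0.70 ± 0.22, 0.0187) were higher and RHOBTB3 was lower (−1.91 ± 0.62, 0.0220), beside HIPK3 at −0.70 ± 0.25, where 11.9% of all sums were called. Averaged over both states 4 of the 10 were higher (ARHGAP12, CAMSAP1, FAT1 and XPO1) and none lower. Of all 580 sums, 116 (20%) were called there, 56 of them lower (9.66% of all sums) and the rest higher. The 4 genes had the most reads of the list, from 358 (CAMSAP1) to 806 (XPO1). The part of read depth in their calls was not tested. Genes named here beyond the 6 with most reads were chosen after their values were seen.

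Of 23 factors that form or degrade circRNAs, 18 had circRNA reads, 151 in all, and none had enough to be tested, so their circles cannot be set beside those of HIPK3 and HIPK2.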
